A study of Mus musculus with 16 samples.

Results

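Open chromatin was examined at 10 carboxylesterase genes of mouse liver, all on chromosome 8: Ces1c, Ces1d, Ces1e, Ces1f and Ces1g in one array, and Ces2a, Ces2c, Ces2e, Ces3a and Ces3b in a second one. DNase hypersensitive sites (DHS), stretches where DNase I cuts chromatin readily, had been mapped in liver nuclei of 8-week-old male and female mice of 2 inbred strains, C57BL/6J (hereafter B6) and CAST/EiJ (hereafter CAST), for which the labels name no engineered allele and no treatment. Each combination of sex and strain had 4 DNase-seq libraries, which the authors merged before calling peaks. The data are therefore 4 pooled peak lists (male B6, female B6, male CAST and female CAST), 1 per group and with no replicate error, so that no difference between groups could be tested. Peaks overlapping by at least 1 bp were joined into regions, and every region touching a member gene or its 20 kb flanks was taken, which gave 49 of the 51482 regions of the series. Of these, 25 lay in the Ces1 array and 24 in the Ces2 and Ces3 array. The lists were of unequal length, with 38751 and 26271 peaks for male and female B6 and 39562 and 24888 for male and female CAST liver, and the fragment pileup taken as genome-wide background was 15.3, 13.9, 14.2 and 7.94. The female CAST list thus rested on the lowest coverage. Among 6 hepatocyte genes used to check the tissue, 5, 3, 5 and 4 had a DHS within 1 kb of their start in the male B6, female B6, male CAST and female CAST lists. Among 14 genes of Kupffer, endothelial, stellate, bile duct and lymphoid cells the numbers were 3, 3, 2 and 1, and no Kupffer, T or B cell marker had one in any list. Serpina1a, one of the hepatocyte genes, had none either. The part that differences in cell composition had in the values below was not tested.

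Carboxylesterases are serine hydrolases, mostly resident in the lumen of the endoplasmic reticulum, that split ester, amide and thioester bonds in drugs, pesticides and endogenous lipids. Many of them are expressed in mouse liver. The family expanded in rodents by tandem duplication, so that a single human CES1 gene corresponds to a row of mouse Ces1 genes. The male and female livers of rodents differ in many drug-metabolizing enzymes under the control of the sex-dependent pattern of pituitary growth hormone, which acts through the transcription factor STAT5, while BCL6 is a male-biased repressor that recognizes similar DNA letters.

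Sequences of 200 bases around the summits of 7 regions on which the results below turn are given first, 5′ to 3′ on the strand of the named gene. They were read from the mm9 reference, which is B6 sequence. The CAST bases were not analysed here. Capitals mark the letters TTCNNNGAA, the core bound by STAT5 and BCL6, or GTTAATNAT, an HNF1 site, on either strand.
Ces1b start, chr8:95604133-95604332, minus strand: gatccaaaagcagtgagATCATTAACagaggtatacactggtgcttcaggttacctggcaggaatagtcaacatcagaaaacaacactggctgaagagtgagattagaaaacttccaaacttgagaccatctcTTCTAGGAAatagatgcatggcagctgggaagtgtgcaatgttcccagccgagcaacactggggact
Ces1c start, chr8:95655500-95655699, minus strand: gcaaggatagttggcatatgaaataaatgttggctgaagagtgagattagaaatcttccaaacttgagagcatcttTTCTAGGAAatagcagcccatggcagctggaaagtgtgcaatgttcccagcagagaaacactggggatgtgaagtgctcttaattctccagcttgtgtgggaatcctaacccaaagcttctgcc
Ces1d start, chr8:95721963-95722162, minus strand: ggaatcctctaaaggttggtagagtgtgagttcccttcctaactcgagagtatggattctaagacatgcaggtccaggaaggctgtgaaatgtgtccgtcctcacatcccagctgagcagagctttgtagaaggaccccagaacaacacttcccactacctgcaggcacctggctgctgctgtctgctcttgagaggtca
Ces2b start, chr8:107355313-107355512, plus strand: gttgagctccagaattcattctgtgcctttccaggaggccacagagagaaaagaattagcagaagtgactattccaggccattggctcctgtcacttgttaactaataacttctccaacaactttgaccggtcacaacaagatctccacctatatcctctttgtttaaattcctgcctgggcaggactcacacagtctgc
Ces2e start, chr8:107450096-107450295, plus strand: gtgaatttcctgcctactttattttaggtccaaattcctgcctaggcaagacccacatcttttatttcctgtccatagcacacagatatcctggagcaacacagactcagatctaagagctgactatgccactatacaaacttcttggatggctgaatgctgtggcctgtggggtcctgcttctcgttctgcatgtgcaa
Upstream of Ces3a, chr8:107569844-107570043, plus strand: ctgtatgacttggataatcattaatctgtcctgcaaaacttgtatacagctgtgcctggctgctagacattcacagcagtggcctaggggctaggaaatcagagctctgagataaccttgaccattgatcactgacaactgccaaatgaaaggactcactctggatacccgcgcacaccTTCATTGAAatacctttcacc
Downstream of Ces3b, chr8:107628473-107628672, plus strand: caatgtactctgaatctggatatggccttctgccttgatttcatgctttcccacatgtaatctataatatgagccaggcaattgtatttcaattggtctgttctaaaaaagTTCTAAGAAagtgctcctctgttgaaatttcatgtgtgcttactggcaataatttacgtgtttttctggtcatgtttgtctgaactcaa
The first 3 are DHS at the starts of paralogous genes that were present in all 4 lists, the Ces2b start carried a DHS in both CAST lists and in neither B6 list, the Ces2e start and the region downstream of Ces3b had a DHS in every list except female B6, and the region upstream of Ces3a had the highest mean fold enrichment of the Ces2 and Ces3 regions found in all 4 lists. The Ces1b and Ces1c summits shared a stretch of 59 bases with 3 mismatches, which holds the STAT5 and BCL6 letters in both. The longest such stretch shared by the Ces2b and Ces2e sequences was 26 bases with 3 mismatches. The Ces1d sequence shared at most 16 bases, with 2 mismatches, with any of the other 6, that one being Ces1c.

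The 2 arrays differed in how their DHS were spread over the lists, a comparison that had not been planned. The male lists held more of the 49 regions than the female lists: 36 and 20 in male and female B6 liver, and 44 and 23 in male and female CAST liver. Of the 51482 regions of the series, the same lists held 38392 and 25718, and 39235 and 24355. In the order male B6, female B6, male CAST, female CAST, the counts were 19, 15, 23 and 13 in the Ces1 array, and in the Ces2 and Ces3 array they were 17, 5, 21 and 10. Female B6 liver thus held 15 of the 25 Ces1 regions but 5 of the 24 Ces2 and Ces3 regions, beside 25718 of 51482 over the series. When every list was cut to the 24888 peaks with the smallest q-values, the length of the shortest list, the Ces1 counts became 13, 15, 13 and 13, whereas the Ces2 and Ces3 counts became 10, 5, 13 and 10. With a −log10 q of at least 10 in every list they were 14, 8, 13 and 11 in the Ces1 array. In the Ces2 and Ces3 array they were then 10, 3, 13 and 4, so that female CAST liver was nearly as low as female B6. The shares of all regions in each list were not computed under these settings.

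**Figure D1:**
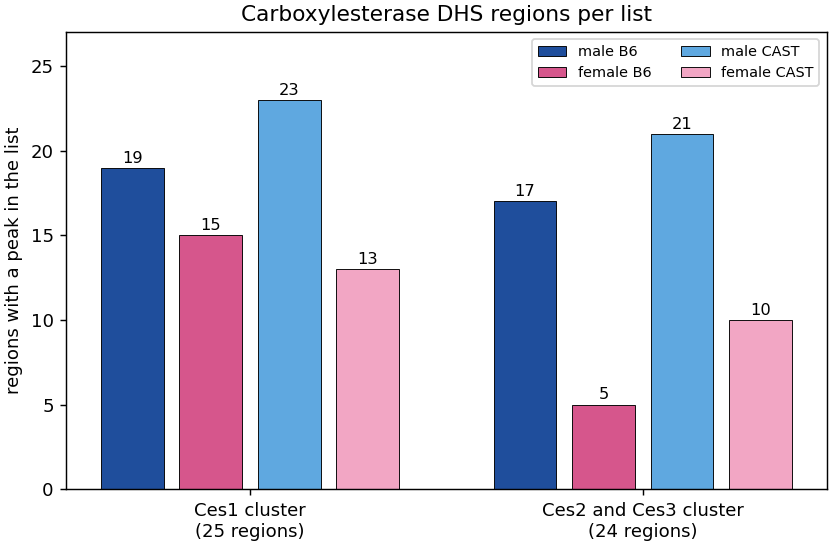
Number of carboxylesterase DHS regions with a peak in each pooled list (bar height, 1 list per group), for the 25 regions of the Ces1 array and the 24 of the Ces2 and Ces3 array. The female B6 bar is 15 in the first array and 5 in the second.

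The larger male counts were close to what the whole lists gave. Of the regions in male B6 liver, 16 of 36 (44.4%) had no peak in female B6 liver, against 38.4% of all regions of that list. Of the regions in male CAST liver, 21 of 44 (47.7%) had none in female CAST liver, against 42.0%. In the opposite direction, 0 of 20 regions in female B6 liver lacked a peak in male B6 liver, against 8.06% of all, and 0 of 23 in female CAST liver lacked one in male CAST liver, against 6.53%. Between the strains, 5 of 36 regions in male B6 liver had no peak in male CAST liver (24.2% of all) and 13 of 44 had the reverse (25.8%). In females, 4 of 20 regions in B6 liver had no peak in CAST liver (27.7%) and 7 of 23 had the reverse (23.6%). All 7 of the latter lay in the Ces2 and Ces3 array. The share of regions found in both sexes of B6 was 78.9% in the Ces1 array (15 of 19, Wilson 95% interval 56.7 to 91.5) and 29.4% in the Ces2 and Ces3 array (5 of 17, 13.3 to 53.1), beside 58.4% over all regions. The share found in both strains in females was 86.7% (13 of 15, 62.1 to 96.3) and 25% (3 of 12, 8.89 to 53.2), beside 59.1% over all. In the other 2 comparisons the arrays were nearer to each other: 56.5% and 47.6% for both sexes of CAST, and 68.0% and 58.3% for both strains in males. These intervals cover counting error only.

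In all 4 lists there were 16 regions, 32.7% of the 49 beside 35.6% of all regions, and 13 of the 16 lay in the Ces1 array. A further 6 (12.2%) were in every list except female B6, beside 4.73% of all regions, and all 6 lay in the Ces2 and Ces3 array, within 20 kb of Ces2e (2 regions) or Ces3b (4 regions). This count was 1 with a −log10 q of at least 10 and 2 with lists of equal length, when the Ces1 array had 2 and 0. The remaining regions were in male CAST alone (12, 24.5%, beside 15.2% of all regions), male B6 alone (5, 10.2%, beside 14.2%), both male lists (5, 10.2%, beside 9.38%), every list except female CAST (4, 8.16%, beside 6.85%) and both CAST lists (1, 2.04%, beside 3.62%). Most of these shares were near those of the whole series. Fold enrichment, the pileup of fragments at the summit over the local background, had a median of 5.52 in the regions of all 4 lists, of 2.44 in those of male CAST alone and of 2.69 in those of male B6 alone.

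**Figure D2:**
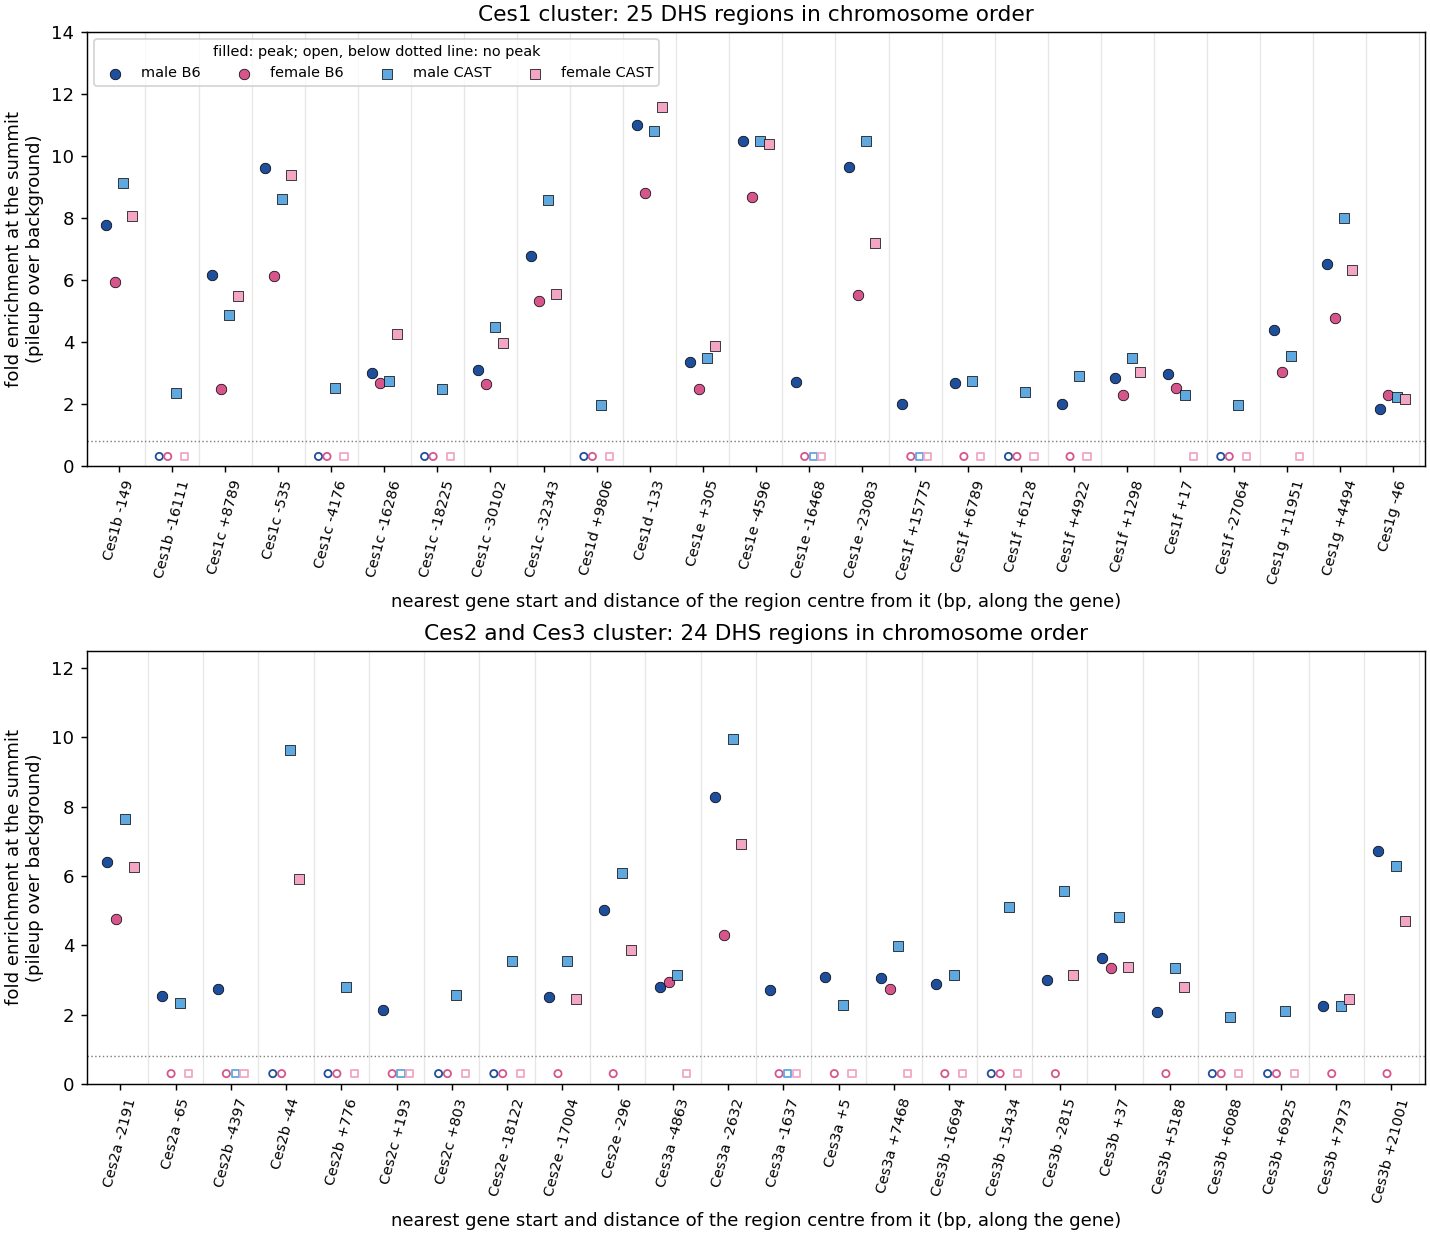
Fold enrichment at the summit (y axis) for each of the 49 regions, in chromosome order within each array and labelled by the nearest gene start and the distance of the region's centre from it in bp (x axis). Circles are B6 and squares CAST, blue male and pink female, each point 1 pooled list, and open symbols below the dotted line mark lists without a peak. The Ces2 and Ces3 panel has open female B6 symbols at 19 of its 24 regions.

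The start of Ces1d had the strongest DHS of both arrays by the mean fold enrichment of the 4 lists. Ces1d encodes a triacylglycerol hydrolase of the endoplasmic reticulum that mobilizes stored lipid for very low density lipoprotein, and the gene lies at chr8:95689967-95721737 on the minus strand of mm9. The fold enrichment over its first exon and upstream bases was 11 and 8.80 in male and female B6 liver, and 10.8 and 11.6 in male and female CAST liver. These values placed it above 95.7% or more of the peaks of each list, and its summits lay within 60 bp of each other. Ces1c, at chr8:95622914-95655182, encodes the carboxylesterase secreted into mouse plasma. The DHS just upstream of its start, 39 bp away at its nearest edge, had a fold enrichment of 9.62, 6.12, 8.63 and 9.38 in the same order. Female B6 was the lowest of the 4, as it was over all regions found in the 4 lists, whose medians were 5.35, 3.88, 5.80 and 4.66.

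The neighbouring Ces1b start, which falls in the Ces1c flank, resembled that of Ces1c with fold enrichments of 7.78, 5.93, 9.14 and 8.08. An intron of Ces1c, 8789 bp from the start, held a weaker DHS with 6.17, 2.48, 4.86 and 5.48. Here female B6 stood lowest and the other 3 lists lay close together. Downstream of the 3′ end of Ces1d was a DHS at chr8:95687117-95687933 with 6.77, 5.33, 8.58 and 5.54. Relative to the median ratio of all shared regions, the male over female log2 ratio of this DHS was -0.06 in B6 and 0.38 in CAST.

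Ces1e encodes egasyn, which holds beta-glucuronidase in the endoplasmic reticulum, and Ces1f a second lipid hydrolase of liver. Neither had a strong DHS at its start: the values were 3.34, 2.49, 3.49 and 3.88 for Ces1e, and 2.97, 2.51 and 2.27 for Ces1f, which had no peak in female CAST liver. Apart from the Ces1d start, which falls in its flank, the strongest DHS within 20 kb of Ces1e lay 4596 bp upstream at chr8:95757458-95758771, with 10.5, 8.67, 10.5 and 10.4. Its pileup was the largest of the 49 regions, at 768, 333, 726 and 302 fragments. A second distal DHS at chr8:95776194-95777009, between Ces1e and the 3′ end of Ces1f, had 9.64, 5.50, 10.5 and 7.19. Its male over female log2 ratio, relative to the median of all shared regions, was 0.41 in B6 and 0.30 in CAST. Within Ces1f, 2 intronic DHS, 6789 and 4922 bp from the start, were found in both male lists and neither female list, with fold enrichments of 2.66 and 2.75, and of 1.98 and 2.90, in male B6 and male CAST liver.

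Ces1g, an enzyme that affects hepatic and plasma lipids and lies at chr8:95826268-95861207, had a weak DHS at its start, with 1.83, 2.28, 2.21 and 2.15. An intronic DHS 4494 bp from the start reached 6.53, 4.76, 7.99 and 6.32. Leaving aside DHS at the starts of neighbouring genes, the highest mean fold enrichment was thus at or beside the annotated start for Ces1d and Ces1c, and kilobases away from the start for Ces1e, Ces1f and Ces1g.

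In the Ces2 and Ces3 array the strongest DHS found in all 4 lists lay upstream of genes. Ces3a, a liver carboxylesterase at chr8:107572499-107582314 on the plus strand, had its strongest DHS 2632 bp upstream, with 8.27, 4.29, 9.94 and 6.93. The centred male over female log2 ratio of this DHS was 0.55 in B6 and 0.27 in CAST. The Ces3a start itself had 3.09 in male B6 and 2.28 in male CAST liver and no peak in either female list. Ces2a, at chr8:107257903-107265530, showed the same arrangement: a DHS 2191 bp upstream with 6.41, 4.76, 7.63 and 6.27, and a start DHS with 2.54 in male B6 and 2.34 in male CAST liver alone. The DHS over the Ces3b start, at chr8:107607285-107608096, had 3.63, 3.35, 4.83 and 3.36 and was the only one of Ces3b in female B6 liver, out of 9 regions in that gene and its flanks.

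The Ces2e start and the region downstream of Ces3b had the highest male B6 values among the DHS missing from female B6 liver. Ces2e hydrolyses di- and triacylglycerol, and its start had 5.02 in male B6 liver, and 6.08 and 3.86 in male and female CAST liver. The region 21001 bp from the Ces3b start, beyond the gene's 3′ end at chr8:107628140-107629169, had 6.73, 6.28 and 4.70 in the same lists. The lowest fold enrichment listed for female B6 at its genome-wide background was 1.94. After division by the median male to female ratio of B6, the Ces2e start stood at 3.80 and the region beyond Ces3b at 5.10, which are 1.96 and 2.63 times that value. The other 4 regions missing from female B6 alone were weaker, with 2.51, 3.0, 2.08 and 2.26 in male B6 liver, and at 3 of them the same calculation came to less than 1.94. For the 16 regions of male B6 without a female B6 peak, 9 were above 1.94. Apart from the Ces2e start and the region beyond Ces3b, the highest was 1.21 times that value. The share above it among all such regions of the series was not computed.

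A single DHS of the 49 was in both lists of a strain and in neither list of the other. For both CAST lists alone this is 2.04%, beside 3.62% of all regions, and for both B6 lists alone it is 0, beside 3.32%. The start of Ces2b, a gene of the same array that falls in the flank of Ces2c, at chr8:107355069-107355788, had 9.63 in male CAST and 5.90 in female CAST liver and no peak in either B6 list. It stood above 93.4% of the peaks in male CAST liver. Within CAST the centred pileup was 0.53 higher in males on the log2 scale (counting interval 0.11 to 0.97). Male B6 listed peaks down to 1.90 at its background, and the male CAST value after centring was 4.80 times that. The male CAST list also had a DHS 15434 bp upstream of Ces3b with 5.11 that was in no other list.

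Ces2c, which encodes a hydrolase of acylcarnitines, acylglycerols and drugs, lies at chr8:107370968-107378383. Male B6 liver had a peak of 2.14 over the start, male CAST liver a separate peak of 2.56 centred 803 bp into the gene, and the female lists had none. The lowest fold enrichment listed at background was 1.90 in each male list. The male B6 peak stood at percentile 7.77 of its list and the male CAST peak at percentile 20.2. The last of the 5 regions found in both male lists and neither female list lay 16694 bp upstream of Ces3b, with 2.87 in male B6 and 3.15 in male CAST liver. The 5 had fold enrichments between 1.98 and 3.15, all under the median of the list, which was 3.49 in male B6 and 3.74 in male CAST liver.

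A DHS within 1 kb of the annotated start was found for all 10 members in male B6 and in male CAST liver, beside 48.9% and 48.2% of the 22380 protein-coding genes. In female B6 and female CAST liver 6 of 10 had one, beside 44.6% and 41.9%. In female B6 the 4 without one were Ces2a, Ces2c, Ces2e and Ces3a, and in female CAST they were Ces1f, Ces2a, Ces2c and Ces3a. Ces2a, Ces2c and Ces3a therefore had a start DHS in both male lists and in neither female list, with fold enrichments from 2.14 to 3.09, the 2 male peaks of Ces2c being separate regions. After centring, 5 of these 6 male values lay below the lowest fold enrichment listed at background in the female list of the same strain (1.94 in B6 and 2.24 in CAST), the exception being Ces3a in B6 at 2.34.

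**Figure D3:**
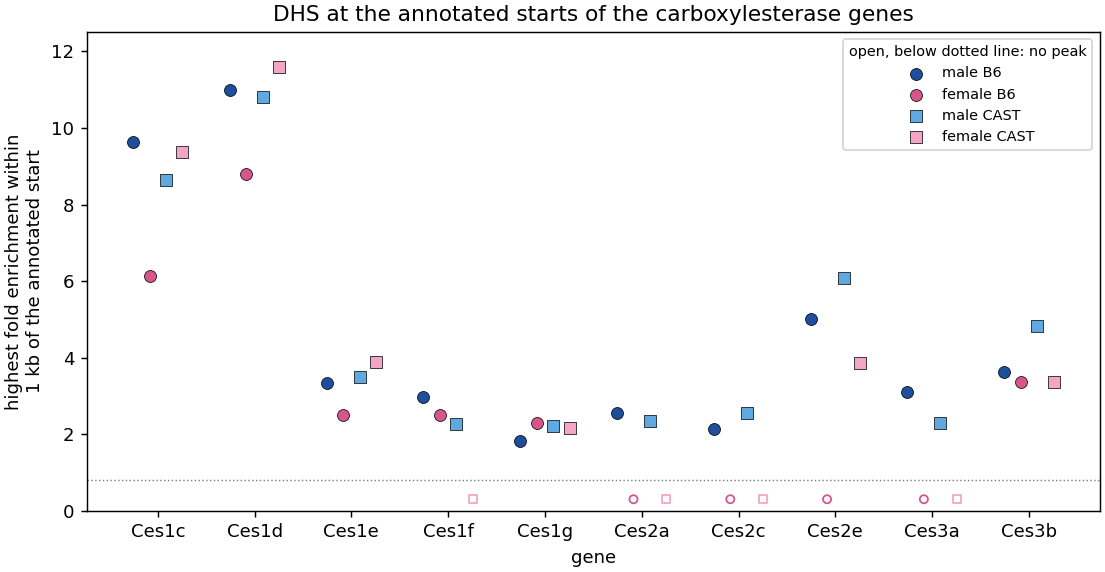
Highest fold enrichment within 1 kb of the annotated start (y axis) for each of the 10 genes (x axis), 1 point per pooled list, with open symbols below the dotted line for lists without a peak. Ces1d and Ces1c stand above 6 in all 4 lists, and Ces2a, Ces2c and Ces3a have open symbols for both female lists.

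Where a region had a peak in both lists of a comparison, its fold enrichments were compared as a log2 ratio centred on the median of all shared regions. No carboxylesterase region reached a 2-fold difference in fold enrichment: 0 of 20 for male over female B6 (0.220% of all shared regions), 0 of 23 for male over female CAST (0.369%), 0 of 31 for CAST over B6 males (2.31%) and 0 of 16 for CAST over B6 females (1.10%). The medians were -0.07, 0.01, 0.09 and 0.16 on the log2 scale. The largest sex difference in B6 was at the Ces1c intron, 0.92 higher in males on the log2 scale, and the same region was 0.43 lower in males of CAST (-0.43). In females it was 0.90 higher in CAST than in B6. Since the fold enrichment divides by a local background, the summit pileup over the genome-wide background was also compared, with 95% intervals for the counting of fragments. For male over female the interval was above 0 at 7 of 20 regions in B6 (13.3% of all shared regions) and below 0 at 0 (9.25%). In CAST it was above 0 at 4 of 23 (9.06%) and below 0 at 2 (7.23%). Both strains had an interval above 0 at 2 regions, and the share of all regions with this was not computed. The DHS upstream of Ces3a was higher in males by 0.92 in B6 (0.51 to 1.35) and 0.46 in CAST (0.04 to 0.90). The DHS between Ces1e and Ces1f was higher in males by 0.56 (0.24 to 0.88) and 0.37 (0.01 to 0.73). By pileup the 2-fold limit was passed by 0 of 20 regions for male over female B6 (1.29% of all shared regions), 1 of 23 for male over female CAST (1.31%), 1 of 31 for CAST over B6 males (6.12%) and 0 of 16 for CAST over B6 females (3.28%). One was 2815 bp upstream of Ces3b, 1.19 higher in CAST than in B6 males (0.69 to 1.71). The other was 16286 bp upstream of Ces1c, -1.17 for male over female CAST (-1.85 to -0.49), and its sequence was the single one of the 49 with a copy elsewhere in mm9 of at least 90% identity (91.2%).

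**Figure D4:**
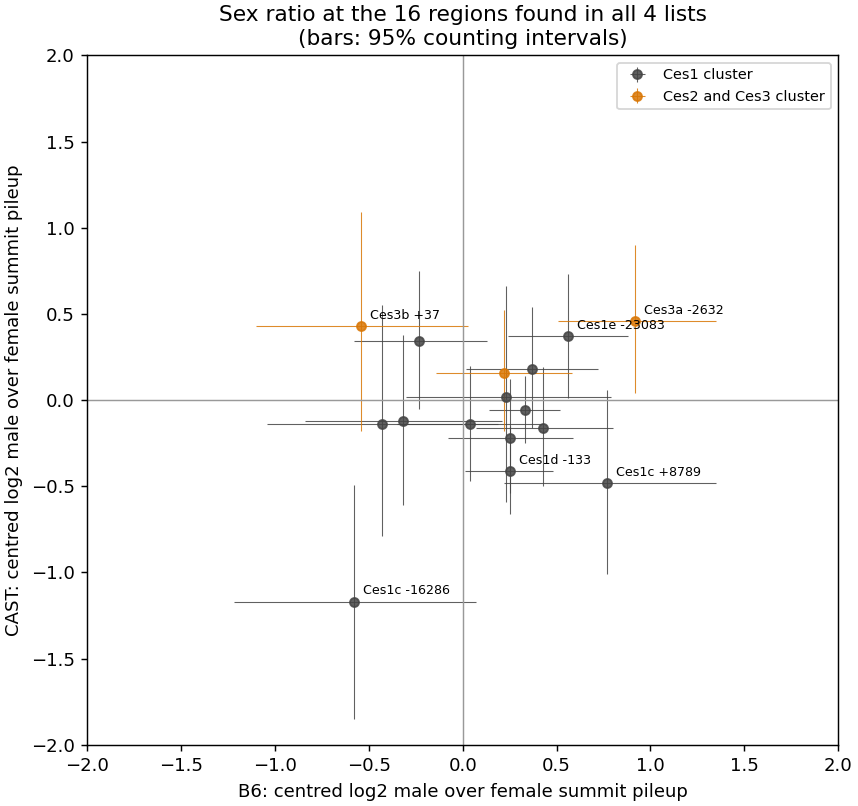
Centred log2 ratio of male over female summit pileup in B6 (x axis) and in CAST (y axis) for the 16 regions found in all 4 lists, with bars for 95% counting intervals. The DHS upstream of Ces3a lies at 0.92 and 0.46, and the Ces1d start at 0.25 and -0.41.

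By pileup, the interval for CAST over B6 was above 0 in both sexes at 2 regions. The share of all regions with this was not computed. At the Ces1b start CAST was higher by 0.65 in males (0.36 to 0.94) and by 0.78 in females (0.36 to 1.20). By fold enrichment the same differences were 0.15 and 0.20. At the DHS upstream of Ces2a CAST was higher by 0.42 in males (0.15 to 0.69) and by 0.43 in females, where the lower bound was 0.0026 and the upper 0.86. At the Ces1f start CAST males were lower than B6 males by pileup, at -0.89 (-1.42 to -0.38). In all, the interval for CAST over B6 was above 0 at 8 of 31 regions in males (18.9% of all shared regions) and below 0 at 3 (14.9%). In females it was above 0 at 6 of 16 (12.6%) and below 0 at 0 (8.24%).

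Position and sequence had not been used to choose the regions beyond their distance from the genes. Of the 49, 21 were intergenic, 12 lay in introns, 11 on exons with untranslated sequence, at gene starts, and 5 on coding exons. In the regions of all 4 lists the summits lay a median of 72 bp apart, beside 91 bp over all such regions. The 300 bases around the summit had a median GC content of 43.7%, beside 49.0% for all regions. The letters TTCNNNGAA, searched on both strands, occurred in 12 of the 49 (24.5%), beside 10.2% of all regions, and GTTAATNAT in 7 (14.3%), beside 2.04%. The HNF1 letters were found at the starts of Ces1b and Ces1c, in the Ces1c intron and in 2 further regions upstream of Ces1c, and in 2 regions of the Ces3 genes. The HNF4A letters CAAAGTCCA or CAAAGGTCA were in 5 (10.2%, beside 3.24%), the FOXA letters TGTTTAC or TGTTTGC in 4 (8.16%, beside 14.2%), and the C/EBP letters TTGCGCAA in 0 (beside 0.219%). The part of the lower GC content in these shares was not tested. The starts of Ces1d, Ces2b and Ces2e held none of these letters in the 300 bases searched.

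The windows ended 20 kb from each gene. On the Ces1b side, 3309 bp outside, a DHS had 3.70 and 2.46 in male and female B6 liver and 2.07 in male CAST liver. Between the Ces2a and Ces2c windows, regions 8107 and 17394 bp outside had 2.2, 4.59 and 3.24, and 3.12, 6.03 and 2.57, in male B6 and in male and female CAST liver, and both lacked a female B6 peak. A region 5149 bp to the left of the Ces3a window had a peak of 2.08 in female B6 liver alone. Just inside the windows lay the Ces1b start described above and a male B6 peak of 2.75 upstream of Ces2b.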

How the data were processed

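DNase-seq was done on liver nuclei in 16 libraries, 4 for each sex and strain, and groups were taken from the library titles. The authors aligned reads with Bowtie2, CAST reads to a CAST version of mm9 whose coordinates were then converted back, merged the 4 libraries of each group and called peaks with MACS2. Per the deposited files, each peak carries a fold enrichment (a ratio of summit pileup to local background), −log10 p and −log10 q values, an integer score and the summit offset. The authors prepared a further library per group that was left out of these lists for quality. Blacklisted peaks, and peaks made only of duplicated reads, had been removed by the authors.

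Peaks of the 4 lists overlapping by 1 bp were joined, and the peak with the smallest q-value represented a list in a region. Summit pileups were recovered from the deposited fold and −log10 p values (99.9% or more came out whole within 0.02), with a pseudocount of 1. Log2 ratios were centred on the median over all shared regions (0.40, 0.25, 0.08 and 0.25 removed for fold enrichment in the order given above, and 0.74, 0.48, 0.06 and 0.37 for pileup). Ratio intervals are conditional binomial and shares carry Wilson intervals, both covering counting error only. With 1 pooled list per group there were no tests. Genes came from the GENCODE annotation of mm9, and copies were sought with blastn 2.17.0. The code used python 3.11.15, pandas 2.3.3, scipy 1.17.1 and pysam 0.24.0 and was checked on simulated lists. Regions to be named were those at each start, the 3 strongest of each array by mean fold, and those in both lists of 1 sex or strain and neither of the other. Regions past 2-fold in the same direction in both strains, or in both sexes, were also to be named, and no region met this by fold enrichment. Others, among them those past 2-fold by pileup alone, were named after their values were seen. The genes, lists, motifs and limits were chosen with earlier results of these data known. Alternatives were a reciprocal overlap of 50%, a −log10 q of at least 10, equal list lengths, joining within 500 bp, a flank of 5 kb, no centring and pileup in place of fold enrichment. Counts per array were not in the plan, and those under these alternatives were added after the data had been seen.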

Additional observations from a re-analysis of the deposited data

Results flagged for a closer look

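The Ces1d start was the strongest DHS of the arrays by mean fold enrichment, though not by pileup. Its male over female ratio of summit pileup had opposite signs in the 2 strains. The pileup was 491 fragments in male B6 and 225 in female B6 liver, and 375 in male CAST and 199 in female CAST liver. The centred log2 ratio was 0.25 in B6 (counting interval 0.01 to 0.48) and -0.41 in CAST (-0.66 to -0.15). By fold enrichment the ratios were -0.08 and -0.36, of the same sign. With 1 pooled list per group the difference between the strains was not tested, and the intervals cover counting error only.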

How the results depend on the processing

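No paired analysis was possible because the libraries of each group were merged before peaks were called, and leaving out single replicates was not possible either. Of 96 recomputed values for 16 results, 82 stayed within 1.5 times the count or within the interval of the original value, and 14 moved. With a −log10 q of at least 10 the number of regions became 11 in female B6, 15 in female CAST and 26 in male CAST liver. With lists of equal length it became 23 in male B6 and 26 in male CAST liver, and the share in both sexes became 72.0% in B6 and 69.0% in CAST. Without centring, the median log2 ratio was 0.41 for CAST over B6 females and 0.33 for male over female B6, and 1 region passed 2-fold in each of these. With summit pileup the median for male over female B6 changed sign, from -0.07 to 0.19, and 1 region passed 2-fold for CAST over B6 males and 1 for male over female CAST. The cause was not tested. The 6 Ces2 and Ces3 regions missing from female B6 alone became 1 at the stricter q-value, 2 with equal lists and 4 with a 5 kb flank, while such regions in the Ces1 array numbered 0, and 2 at the stricter q-value or under the 50% overlap. Depth limits the female CAST list most: its lowest listed fold enrichment at background was 2.24, beside 1.90 to 1.94 in the others.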

Other observations

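Of the 10 other carboxylesterase genes listed (Ces1a, Ces1b, Ces1h, Ces2b, Ces2d-ps, Ces2f, Ces2g, Ces2h, Ces4a and Ces5a), 2 and 1 had a DHS within 1 kb of the start in male and female B6 liver (48.9% and 44.6% of all protein-coding genes), and 3 and 2 in male and female CAST liver (48.2% and 41.9%). Ces1b accounted for 1 in each list, Ces2g had 2.26 in male B6 and 3.74 in male CAST liver with no peak in either female list, and Ces2b was present in CAST alone. Near Ces2h the highest fold enrichment within 20 kb was 4.52 and 2.95 in male and female B6 liver, and 8.77 and 6.74 in male and female CAST liver. Ces5a went the other way, with 4.59 and 2.28 in male and female B6 liver and no region in either CAST list. Near Ces1a the values were mixed, with 5.88 and 2.21 in male and female B6 liver and 5.15 and 3.63 in male and female CAST liver.

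Among 12 other ester and lipid hydrolases of liver (Aadac, Bche, Pon1, Pon2, Pon3, Lipc, Lipa, Mgll, Pnpla2, Pnpla3, Nceh1 and Esd), 10 had a start DHS in each of the 4 lists, beside 41.9% to 48.9% of all protein-coding genes per list. Pon1 and Lipc had none in any list. In male B6 liver the highest fold enrichment within 20 kb was 19.7 at Pnpla3, 14.5 at Lipc, 13 at Lipa, 12.4 at Mgll and 12.2 at Pnpla2, all lipase or lipid hydrolase genes, beside 11 at Ces1d. It was lower than at Ces1d for the other 7 genes.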
